A study of Mus musculus with 12 samples.

Results

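The miR-200 family consists of 5 related microRNAs made from 2 places in the mouse genome. Its guide arms, mmu-mir-200b-3p, mmu-mir-200a-3p, mmu-mir-429-3p, mmu-mir-200c-3p and mmu-mir-141-3p in the spelling of the files (written below without the species prefix), were taken by name from a table of 1251 miRNA rows, and all 5 were present. They were followed in 12 small RNA libraries of mouse skin and of cutaneous squamous cell carcinoma (SCC), a tumour of epidermal keratinocytes. All mice were of the C57Bl6 strain. TAp63 knockout mice (TAp63-/-, without the isoform of the p53-family factor p63 that carries the transactivation domain) gave 4 SCC libraries, and wild-type (WT) mice gave 2. Both sets of tumours came from mice older than 35 weeks that received chronic UVR (ultraviolet radiation) 3 times a week at 2.5 kJ/m2. TAp63 knockout mice and WT mice also gave 3 libraries each of untreated dorsal skin, collected at the age of 4 weeks. Tumour, UVR and age therefore differ together between SCC and skin and cannot be told apart. The labels do not state that each library is a separate mouse, so p-values measure the spread between these libraries, which may be partly technical.

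MicroRNAs are short RNAs cut from hairpin precursors. One strand, the guide arm, is loaded into Argonaute and pairs with messenger RNAs mainly through its seed, while the other strand, the passenger arm, is mostly degraded. The miR-200 family is known as a keeper of epithelial identity: its members repress ZEB1 and ZEB2, transcription factors that silence E-cadherin, and these factors in turn repress both miR-200 loci. Loss of the family is a known mark of epithelial to mesenchymal transition in carcinoma cells.

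The 5 guide arms are printed because their seeds decide which targets they share. Capitals mark the seed, bases 2 to 8 from the 5′ end, and the sequences are from RefSeq on GRCm38.p6 (mm10), minus strand in each case.
miR-200b-3p (chr4:156055685-156055706): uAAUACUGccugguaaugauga
miR-429-3p (chr4:156053916-156053937): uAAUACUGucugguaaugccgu
miR-200c-3p (chr6:124718324-124718346): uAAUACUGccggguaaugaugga
miR-200a-3p (chr4:156054911-156054932): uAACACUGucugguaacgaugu
miR-141-3p (chr6:124717917-124717938): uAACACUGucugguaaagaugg
The first 3 share 1 seed and the last 2 share the other, and the seeds differ by U4C (from miR-200b-3p to miR-200a-3p, positions counted from 1 at the 5′ end). Each seed thus occurs at both loci. Outside the seed, members are close to each other. miR-200a-3p and miR-141-3p differ at 2 of 22 bases (C17A and U22G), and miR-200b-3p and miR-200c-3p at 2 of 22 (U11G and A22G), with 1 further base at the end of miR-200c-3p. How the authors assigned reads with mismatches is not given in the sources used here, so a part of the reads of such a pair could have been split between them.

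On chromosome 4, the hairpins of miR-200b (156055681 to 156055750), miR-200a (156054896 to 156054985) and miR-429 (156053905 to 156053987) follow one another, with 695 and 908 bases between them. All 3 lie on the same strand as the protein-coding gene Ttll10, in an intron, and inside the noncoding gene Gm13648, where miR-429 falls within an exon. On chromosome 6, the hairpins of miR-200c (124718322 to 124718390) and miR-141 (124717914 to 124717985) are 336 bases apart. Both lie in an intron of the noncoding gene Gm15884 on the same strand, and miR-141 partly overlaps an exon of Gm29008.

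A level below is the authors' log2 value, normalized so that each library has nearly the same set of values, with low values set to a floor at the log2 of 10 (3.32). Read depth is unknown. Above the floor were 432 to 545 miRNAs in knockout SCC, 402 to 420 in WT SCC, 370 to 465 in knockout skin and 390 to 433 in WT skin. The keratinocyte miRNA miR-205-5p was abundant in both tissues, between 17.72 and 18.75 in SCC and between 16.29 and 16.78 in skin. The ranges of SCC and skin did not overlap for this miRNA, but it was not used to check the labels, which were taken as given. In bulk tissue, fewer cells of a type and less RNA per cell cannot be told apart. 1 library, knockout SCC replicate 2, stands apart in the family and is described before the comparisons, which are also given without it.

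All 5 guide arms were abundant. miR-141-3p was the highest member in every library and miR-200c-3p the lowest, at ranks 18 to 85 and 69 to 170 among the 1251 miRNAs. miR-200b-3p was at ranks 40 to 102, miR-200a-3p at 54 to 129 and miR-429-3p at 59 to 125. On the linear scale the 5 together made up 0.141% of the summed values in knockout SCC replicate 2. In the other 11 libraries they made up between 0.938% (knockout skin replicate 3) and 1.99% (knockout SCC replicate 1). The miR-141-3p level was 39.6% of the family sum in knockout SCC replicate 2 and 50.8% to 61.2% in the others. Levels of different miRNAs also carry differences in ligation and amplification, so these orders describe the libraries rather than molecule numbers.

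Among the members of the chromosome 4 locus, miR-200b-3p was at 14.19, 11.07, 14.41 and 13.48 in the 4 knockout tumours, 13.79 and 13.91 in the 2 WT tumours, 13.13, 13.20 and 13.17 in knockout skin, and 14.12, 13.79 and 13.30 in WT skin. Replicate 2 of the knockout tumours was the lowest of all 12, and otherwise tumours and skin overlapped. miR-200a-3p was at 13.55, 10.24, 13.01 and 13.01 in knockout SCC, 11.89 and 13.01 in WT SCC, 13.34, 13.08 and 12.82 in knockout skin, and 13.20, 13.17 and 13.27 in WT skin. Here WT SCC replicate 1 also lay below every skin library. miR-429-3p was at 13.27, 10.35, 13.30 and 12.82 in knockout SCC, 12.59 and 13.20 in WT SCC, 12.45, 12.31 and 12.002 in knockout skin, and 12.59, 12.73 and 12.59 in WT skin. For miR-429-3p, 4 of 6 tumours lay above all skin libraries and 1 below them.

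Among the members of the chromosome 6 locus, miR-200c-3p was at 12.63, 8.99, 10.98 and 11.10 in knockout SCC, 10.79 and 12.002 in WT SCC, 11.23, 11.89 and 11.89 in knockout skin, and 11.42, 11.57 and 11.64 in WT skin. It had 2 tumours above all skin libraries and 4 below them, so its tumours fell on both sides of skin. miR-141-3p was at 16.17, 11.73, 15.45 and 15.23 in knockout SCC, 15.13 and 15.23 in WT SCC, 15.13, 15.08 and 14.99 in knockout skin, and 15.72, 15.28 and 14.99 in WT skin. Except for the highest and the lowest knockout tumour, its SCC values lay inside the range of skin.

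**Figure D1:**
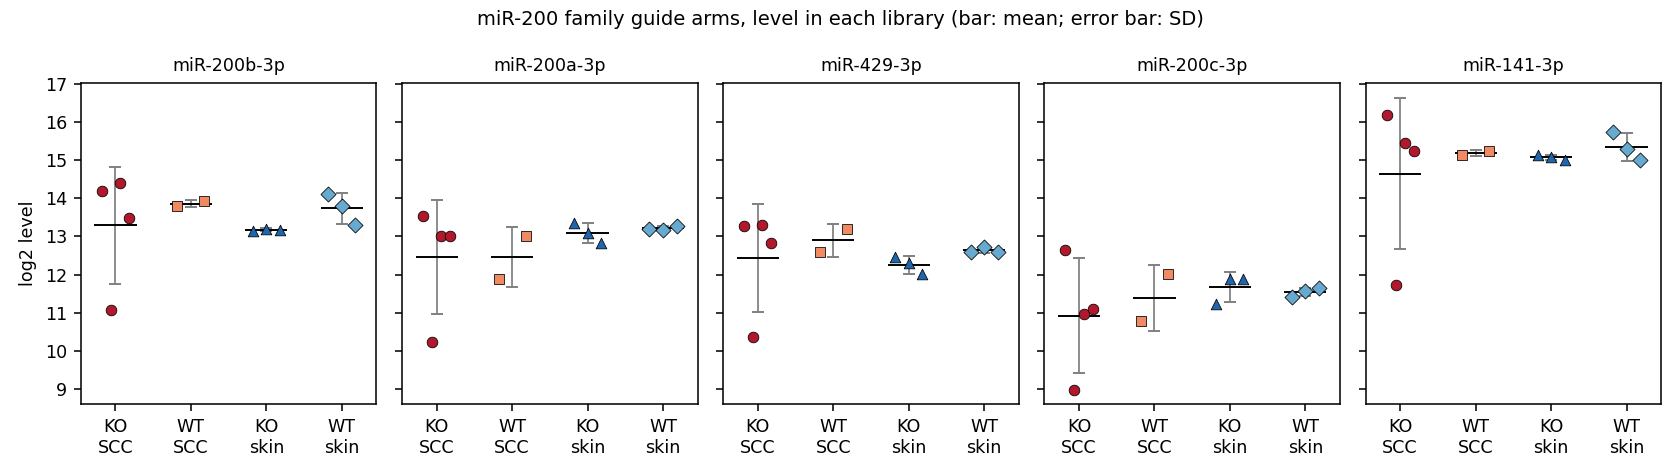
Log2 level of each miR-200 guide arm (y axis) in each library, by group (x axis: KO SCC, n = 4; WT SCC, n = 2; KO skin, n = 3; WT skin, n = 3), with group means as bars and SD as error bars. In all 5 panels the lowest point is the same library, knockout SCC replicate 2, at 11.07, 10.24, 10.35, 8.99 and 11.73.

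In knockout SCC replicate 2 all 5 members fell below every other library. Set against the median of the other 3 knockout tumours, the log2 difference was -3.72 for miR-141-3p (13.2-fold), -3.12 for miR-200b-3p (8.68-fold), -2.92 for miR-429-3p (7.55-fold), -2.77 for miR-200a-3p (6.80-fold) and -2.12 for miR-200c-3p (4.34-fold). Members of both loci and both seeds were thus low together in this tumour. This compares single libraries and has no test. The tests below cover 544 miRNAs, those that exceeded the floor in 2 or more libraries. Of these, 40 (7.35%) were lowest of the 12 libraries in this tumour. The same count ran from 4 to 63 in the other 11 libraries. A difference at least as low as that of miR-200c-3p was found for 17 of the 544 (3.12%), the members included. Among the 535 other than family arms it was found for 9 (1.68%). Among the 101 tested miRNAs that were at least as abundant as miR-200c-3p in the other 3 knockout tumours, 7 were so low. The 5 members are among these 7 by construction, since miR-200c-3p, the least affected and least abundant member, set both cutoffs. Of the other 96, 2 (2.08%) were so low.

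The passenger arms, which are separate rows of the table, followed the same pattern. In knockout SCC replicate 2, miR-141-5p differed from the median of the other knockout tumours by -4.02, miR-200a-5p by -3.48 and miR-200b-5p by -3.15 on the log2 scale, and each was the lowest of the 12 libraries. miR-200c-5p was at the floor in this library, as it was in all skin libraries. Markers of keratinocytes were not low to that extent. miR-205-5p, which is known to target ZEB1 and ZEB2 as well, was at 17.72 in this tumour and between 18.21 and 18.75 in the other 3 knockout tumours, above all skin libraries in each. miR-203-3p, a miRNA of keratinocyte differentiation, was at 16.51, against 16.29 to 16.94 in the other 3. Of the 7 miRNAs in a list of other epithelial miRNAs, miR-375-3p, an epithelial and neuroendocrine miRNA, differed as far as the family (-3.92). The other 6 lay between -1.15 (miR-96-5p) and 1.25 (miR-184-3p). Only miR-184-3p, near the floor at 4.93 in this tumour, was above 0, and the rest were lower by 0.43 (miR-203-3p) or more.

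The summed level of that epithelial list was 18.82 in knockout SCC replicate 2, the lowest of the 4 knockout tumours (highest 19.64), and 19.19 to 19.53 in WT SCC, 18.63 to 18.87 in knockout skin and 18.65 to 18.98 in WT skin. The stromal and smooth muscle list (6 distinct rows, since miR-199a-3p and miR-199b-3p have the same values) summed to 18.72 in this tumour, with 17.44 to 18.73 over the 4 knockout tumours, 17.85 to 18.06 in WT SCC, 18.68 to 19.40 in knockout skin and 17.73 to 18.51 in WT skin. The blood cell list (5 rows) summed to 14.74 in this tumour, with 13.09 to 15.24 in knockout SCC, 13.76 to 14.46 in WT SCC, 12.34 to 12.79 in knockout skin and 12.24 to 12.72 in WT skin. No row of these 3 lists was at the floor in all libraries. The sums of stromal and blood miRNAs in knockout SCC replicate 2 lay within the range of the other tumours, the stromal sum near its upper end. Single rows moved in both directions against the median of the other knockout tumours. Stromal rows differed by -0.28 (miR-199a-5p) to 1.26 (miR-143-3p), and blood cell rows by -1.09 (miR-150-5p) to 1.63 (miR-223-3p). The part of cell makeup in the low family values was not tested.

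**Figure D2:**
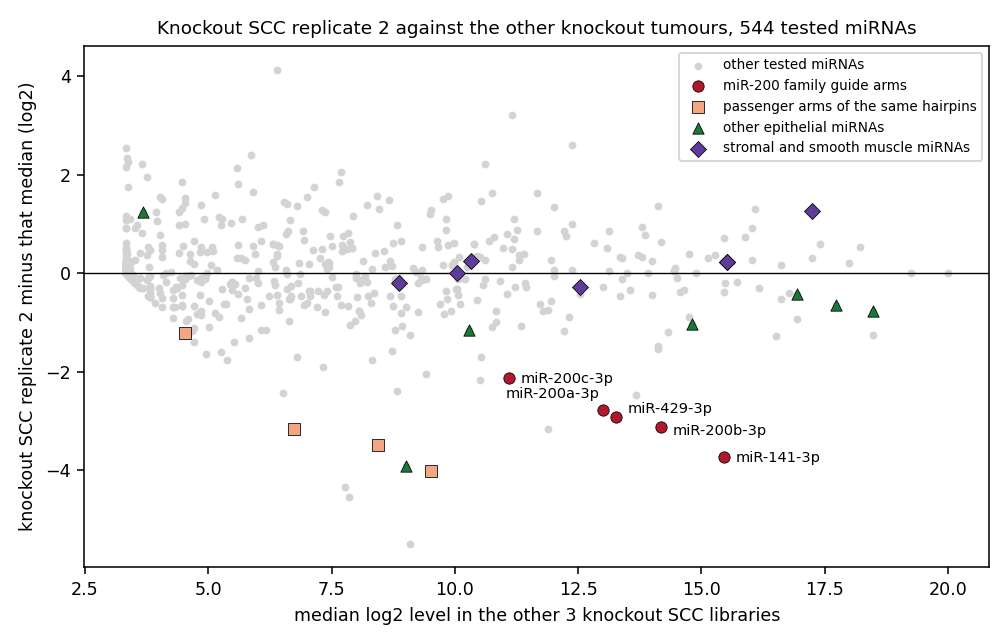
Log2 difference of knockout SCC replicate 2 from the median of the other 3 knockout tumours (y axis) against that median (x axis) for the 544 tested miRNAs, 1 point each, with the guide arms, the passenger arms and 2 marker lists in colour. The 5 guide arms lie between -3.72 and -2.12, while 90% of all tested miRNAs lie between -1.47 and 1.51.

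The first comparison asked how the family differs between SCC and skin. Each tested miRNA was fitted with limma on the log2 levels using 1 mean per group (4 groups), and an adjusted p (Benjamini-Hochberg over the 544) under 0.05 was called. With all libraries, 0 of the 5 members were called in either direction when the genotypes were averaged, against 41.9% of all tested miRNAs, and none of the 5 had an unadjusted p under 0.05. The differences, SCC minus skin, were 0.12 ± 0.50 (SE) for miR-200b-3p, -0.70 ± 0.50 for miR-200a-3p, 0.22 ± 0.46 for miR-429-3p, -0.45 ± 0.51 for miR-200c-3p and -0.29 ± 0.63 for miR-141-3p, with adjusted p between 0.303 and 0.848. Their median was -0.29, against 0.04 over all tested miRNAs. The 95% intervals are wide: that of miR-200a-3p ran from -1.80 to 0.41 and that of miR-141-3p from -1.67 to 1.10.

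Without knockout SCC replicate 2 the standard errors were smaller and the direction of 1 member turned. miR-429-3p was then higher in SCC, at 0.57 ± 0.18 (1.48-fold, adjusted p = 0.0265), which was a call. It was the only call among the 5 members, where 41.9% of all tested miRNAs were called with all libraries. miR-200b-3p was at 0.49 ± 0.21 (adjusted p = 0.0884), miR-141-3p at 0.20 ± 0.20 (0.457), miR-200c-3p at -0.12 ± 0.34 (0.784) and miR-200a-3p at -0.33 ± 0.22 (0.272). Since the choice to look at this library came from its family values, these numbers describe how much 1 tumour decides the result.

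In knockout mice (4 SCC and 3 skin libraries), 0 of the 5 members were called, where 34.2% of all tested miRNAs were (16.0% higher and 18.2% lower in SCC). miR-200c-3p averaged 10.92 ± 1.50 (SD, n = 4) in SCC and 11.67 ± 0.39 (n = 3) in skin, a difference of -0.75 ± 0.66 (SE). miR-141-3p averaged 14.64 ± 1.99 in SCC and 15.07 ± 0.07 in skin, a difference of -0.42 ± 0.81. The other 3 differed by 0.12 (miR-200b-3p), 0.18 (miR-429-3p) and -0.63 (miR-200a-3p). The SD of every member was larger in knockout SCC than in any other group, from 1.41 for miR-429-3p to 1.99 for miR-141-3p, and without replicate 2 it was between 0.27 for miR-429-3p and 0.92 for miR-200c-3p. Without that tumour, miR-429-3p (0.88 ± 0.24, 1.84-fold, adjusted p = 0.0166) and miR-200b-3p (0.86 ± 0.28, 1.81-fold, adjusted p = 0.0378) were called higher in knockout SCC than in knockout skin. These 2 share the locus and the seed, and the third member with that seed, miR-200c-3p, was at -0.10 ± 0.46 (adjusted p = 0.896). With 1 library left out in turn, 129 to 193 of all tested miRNAs were called in this comparison, against 186 (34.2%) with all libraries. A list of 5 members with 2 calls cannot be set apart from that share.

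In WT mice (2 SCC and 3 skin libraries), 0 of the 5 were called, against 18.2% of all tested miRNAs (8.82% higher and 9.38% lower in SCC). miR-200a-3p averaged 12.45 ± 0.79 (SD, n = 2) in SCC and 13.22 ± 0.05 (n = 3) in skin, a difference of -0.76 ± 0.77 (SE, adjusted p = 0.560). The other 4 lay between -0.15 (miR-141-3p) and 0.26 (miR-429-3p). For miR-200a-3p, WT SCC replicate 1 alone gave -1.32 against WT skin and WT SCC replicate 2 alone gave -0.21. Leaving out knockout SCC replicate 2 does not move these differences, only their SE, and 0 of the 5 were called then too (miR-200a-3p -0.76 ± 0.33, adjusted p = 0.134).

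The second comparison asked what the loss of TAp63 does to the family in each tissue. In skin, limma called 0 of the 5 members and 0 of the 544 miRNAs (0.0% of those tested), of which 31 had an unadjusted p under 0.05, none of them in the family. With library quality weights 22 of the 544 were called, again without a family guide arm. miR-200b-3p averaged 13.17 ± 0.04 in knockout skin and 13.74 ± 0.41 in WT skin (SD, n = 3 each), the largest of the 5 differences at -0.57 ± 0.68 (SE). Its knockout values all lay below the WT values, and so did those of miR-429-3p, which averaged 12.26 ± 0.23 in knockout skin and 12.64 ± 0.08 in WT skin. The other 3 members overlapped. Over all tested miRNAs, 28 of 544 (5.15%) had all knockout skin values below all WT skin values, and 37 (6.80%) had them above. The miR-200c-3p difference was 0.13, that of miR-200a-3p -0.14 and that of miR-141-3p -0.27. The 95% interval of the miR-200b-3p difference ran from -2.07 to 0.93. Without knockout SCC replicate 2, which enters only the shared spread, its SE was 0.28 and its adjusted p 0.923.

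In SCC, 0 of the 5 members and 1 of the 544 (0.184%) were called between knockout (n = 4) and WT (n = 2). The difference, knockout minus WT, was -0.56 ± 0.73 for miR-200b-3p, -0.54 ± 0.92 for miR-141-3p, -0.47 ± 0.75 for miR-200c-3p and -0.46 ± 0.67 for miR-429-3p. miR-200a-3p averaged 12.45 in both groups. Without knockout SCC replicate 2 all 5 were positive, from 0.18 for miR-200b-3p and for miR-200c-3p to 0.74 ± 0.33 for miR-200a-3p (adjusted p = 0.406). The sign of the genotype difference in tumours thus depended on that library for the 4 members that were lower with it. The interaction, which is the SCC minus skin difference of knockout mice less that of WT mice, called 0 of the 544 miRNAs (0.0% of those tested, 41 with an unadjusted p under 0.05) and was between -0.60 ± 1.03 (miR-200c-3p) and 0.14 ± 1.004 (miR-200a-3p). Without knockout SCC replicate 2 it was positive for all 5, from 0.046 ± 0.68 (miR-200c-3p) to 0.87 ± 0.45 (miR-200a-3p), none of them called. The sign of miR-200c-3p, miR-141-3p (0.70, against -0.27 with all libraries) and miR-429-3p (0.62, against -0.079) turned.

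**Figure D3:**
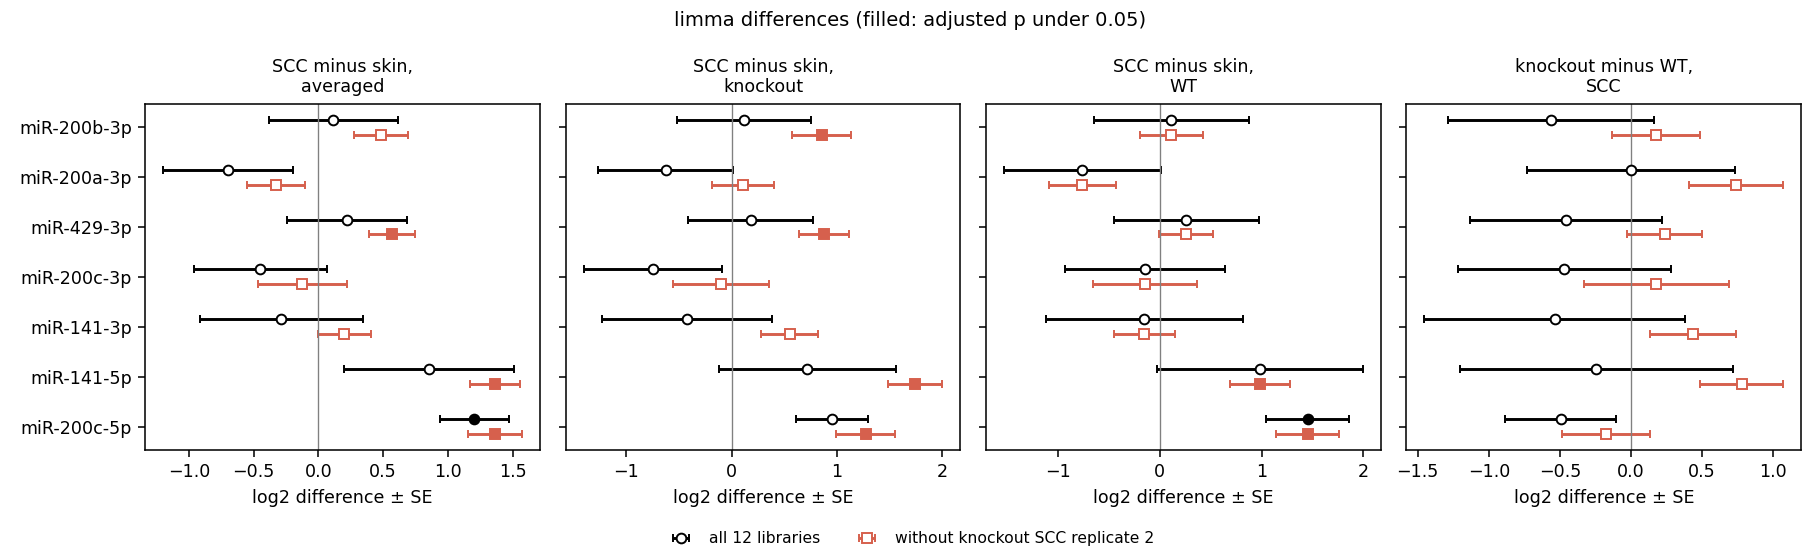
limma log2 difference with its SE (x axis) for the 5 guide arms and 2 passenger arms (y axis) in 4 comparisons, with all 12 libraries (black circles) and without knockout SCC replicate 2 (red squares). Filled marks have an adjusted p under 0.05. Among the guide arms, filled marks appear in red for miR-429-3p in the averaged and knockout panels and for miR-200b-3p in the knockout panel.

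At the chromosome 6 locus, the passenger arm miR-200c-5p rose in SCC, while its guide arm was not called. The hairpins of the locus are printed with their 2 mature arms in capitals, the passenger arm first.
miR-200c (chr6:124718322-124718390): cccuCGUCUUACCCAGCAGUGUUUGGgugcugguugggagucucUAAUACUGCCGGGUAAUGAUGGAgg
miR-141 (chr6:124717914-124717985): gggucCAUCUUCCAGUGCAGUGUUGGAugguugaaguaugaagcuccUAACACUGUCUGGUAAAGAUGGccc
miR-200c-5p was at 4.54, 3.32, 4.25 and 5.01 in knockout SCC and 5.06 and 4.49 in WT SCC, against the floor of 3.32 in all 6 skin libraries. It was therefore detected in 5 of 6 tumours and in no skin library. Over all tested miRNAs, 17.6% had at least 5 of 6 tumours above all skin libraries. Averaged over genotypes it was 1.20 ± 0.27 higher in SCC (2.30-fold, adjusted p = 0.00434), the only call among the 4 tested passenger arms. Over all tested miRNAs 20.4% were called higher in the same comparison, so 1 of 4 is near the background. Without a single library the adjusted p stayed between 0.000582 and 0.0242. The row passed the filter only through tumours. With skin at the floor it could not be lower in SCC, so the direction of any call was fixed in advance. The fold understates the change, since skin is at the floor, and the absence of spread in skin can make the SE too small.

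Within genotypes the call of miR-200c-5p was less stable. In WT mice it was 1.45 ± 0.41 higher in SCC (adjusted p = 0.0314). That call ended when WT SCC replicate 1 was left out (adjusted p = 0.236). It also ended when WT skin replicate 1, 2 or 3 was left out (0.0768, 0.0833 and 0.0743), and when knockout skin replicate 2 was (0.0515). In knockout mice it was at 0.96 ± 0.35 (adjusted p = 0.0518), and 1.28 ± 0.28 without knockout SCC replicate 2 (adjusted p = 0.00656). It was also called with median-ratio scaling (1.05, adjusted p = 0.0384), with library quality weights (0.99, 0.0227) and without WT SCC replicate 1 (0.96, 0.0493). The 2 genotypes' effects were not shown to differ (interaction -0.50 ± 0.54, adjusted p = 0.851).

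miR-141-5p was at 9.78, 5.50, 9.52 and 9.48 in knockout SCC and 8.47 and 9.16 in WT SCC, against 7.80, 7.78 and 7.96 in knockout skin and 7.73, 7.64 and 8.12 in WT skin. Thus 5 of 6 tumours lay above all skin libraries, and knockout SCC replicate 2 lay below all of them. At least 5 of 6 tumours above all skin libraries were found for 17.6% of all tested miRNAs. The averaged difference was 0.85 ± 0.66 (adjusted p = 0.337) with all libraries and 1.36 ± 0.20 (2.58-fold, adjusted p = 0.000389) without knockout SCC replicate 2. Without that library it was also called in knockout mice (1.75 ± 0.26, adjusted p = 0.000771) and in WT mice (0.98 ± 0.29, adjusted p = 0.0388). The WT difference itself was the same with all libraries (0.98 ± 1.01, adjusted p = 0.570), and only the shared spread changed. The library left out was chosen from its family values, so these calls describe how much it decides. At the chromosome 4 locus, miR-200a-5p averaged 7.67 in SCC and 8.49 in skin, and miR-200b-5p 6.11 in SCC and 6.54 in skin, neither of which was called (adjusted p = 0.306 and 0.626). miR-429-5p was at the floor in all 12 libraries and was not tested.

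The log2 difference between the 2 arms of miR-141, guide minus passenger, was 6.39, 6.23, 5.93 and 5.75 in knockout SCC and 6.66 and 6.07 in WT SCC, against 7.33, 7.30 and 7.03 in knockout skin and 7.99, 7.64 and 6.87 in WT skin. It was smaller in all 6 tumours than in any skin library, knockout SCC replicate 2 included. The mean was 6.17 in SCC and 7.36 in skin. Among 77 hairpins with both arms above the floor in all libraries, 5 (6.49%) had a smaller difference in all tumours than in all skin libraries and 16 (20.8%) a larger one, and the median change over the 77 was 0.22. For miR-200a (means of 4.79 in SCC and 4.65 in skin) and miR-200b (7.36 in SCC and 6.91 in skin), tumours and skin overlapped. The shift of miR-141 was seen after its values were known and has no test.

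**Figure D4:**
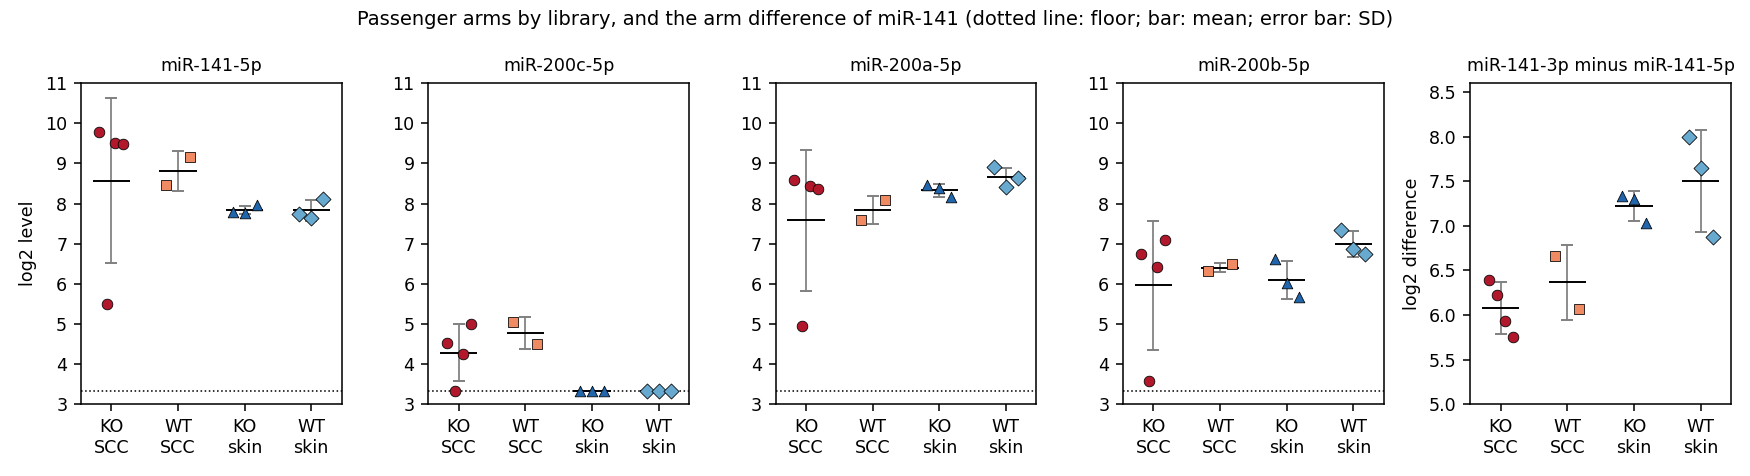
Log2 levels of 4 passenger arms by library (4 left panels, the dotted line is the floor) and the log2 difference between the arms of miR-141 (right panel, y axis from 5), by group, with means as bars and SD as error bars. miR-200c-5p leaves the floor in tumours only, in 5 of 6, and the arm difference of miR-141 is at most 6.66 in tumours and at least 6.87 in skin.

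Members were also compared with each other inside each library. miR-200a-3p and miR-429-3p, which sit 908 bases apart, differed by 0.27, -0.11, -0.30 and 0.19 in knockout SCC and by -0.69 and -0.20 in WT SCC (miR-200a-3p minus miR-429-3p, log2). The same difference was 0.89, 0.76 and 0.82 in knockout skin and 0.62, 0.44 and 0.68 in WT skin. miR-429-3p was thus nearer to or above miR-200a-3p in all 6 tumours, and the groups did not overlap. This was 1 of 10 member pairs, while 31.6% of all pairs of miRNAs above the floor in all libraries did not overlap between SCC and skin. A share of 1 in 10 is below that background.

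Relations between members across libraries were computed within each tissue, for 10 pairs in 6 skin libraries and 10 pairs in 6 SCC libraries. In SCC, Pearson's r was between 0.84 and 0.98 and Spearman's rho between 0.54 and 0.95, and no pair passed the exact permutation test after adjustment over both tissues (adjusted p from 0.0556 to 0.0833 for r). Without the 2 libraries farthest from the median of the first member, which always included knockout SCC replicate 2, r was between -0.04 (miR-200c-3p and miR-141-3p) and 0.97 (miR-200a-3p and miR-141-3p) over 4 libraries. In skin, r ran from -0.81 (miR-200a-3p and miR-200c-3p) to 0.92 (miR-200b-3p and miR-141-3p), with adjusted p from 0.0694 to 0.704 by the exact permutation test. Spearman's rho in skin was between -0.81 and 0.72. The 2 neighbours on chromosome 6 had an r of -0.48 in skin (adjusted p = 0.415, exact permutation test).

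The miRNAs most like each member were named by the smallest root mean square difference of log2 levels after centring each row, over 12 libraries and 314 other miRNAs above the floor in all of them. miR-429-3p was nearest to miR-708-3p (0.25) and miR-200b-3p (0.26), and miR-200b-3p to miR-429-3p (0.26) and miR-708-3p (0.37). miR-200a-3p was nearest to its own passenger arm (0.27), miR-141-3p to miR-200a-5p (0.34) and miR-200c-3p to miR-200a-3p (0.42). Other arms of the family took 10 of the 15 nearest places, and the median over all 314 was between 1.03 and 1.24. Without knockout SCC replicate 2 the family took 3 of 15 places, and miR-708-3p stayed nearest to miR-429-3p (0.14) and became nearest to miR-200b-3p (0.25).

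Of the 7 other epithelial miRNAs, 3 were called higher and 2 lower in SCC than in skin, averaged over genotypes, where 20.4% of all tested miRNAs were called higher and 21.5% lower. Their median difference was 0.64, against 0.04 over all tested. miR-205-5p rose by 1.55 ± 0.19 (adjusted p = 1.1e-04) and kept its call without any 1 library. miR-183-5p (0.91 ± 0.33, adjusted p = 0.0427) and miR-182-5p (0.64 ± 0.21, 0.0310), which share a cluster, were the other calls. With 1 library left out in turn, the miR-183-5p call ended in 9 of 12 cases (adjusted p up to 0.226) and the miR-182-5p call in 8 of 12 (up to 0.168), each with its highest p without WT SCC replicate 1. The miR-183-5p call also ended with a looser filter of 1 library above the floor (0.0585) and with library quality weights (0.0709). Of the 2 called lower, miR-203-3p (-0.60 ± 0.21, adjusted p = 0.0416) lost its call in 7 of 12 cases (up to 0.106, without WT SCC replicate 1). It also lost it with median-ratio scaling (-0.48, adjusted p = 0.0952) and library quality weights (0.0709). miR-184-3p, at -2.66 ± 0.54 (adjusted p = 0.00251), lost it in 0 of 12. Of the 7 stromal and smooth muscle rows, 0 were called higher and 2 lower, with a median of -0.47.

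Marker lists of other cell types were also compared between SCC and skin, averaged over genotypes. In this comparison 20.4% of all tested miRNAs were called higher and 21.5% lower. Of the 5 striated muscle miRNAs, 0 were called higher and 4 lower (median -2.61), led by miR-206-3p at -6.20 ± 0.43 (adjusted p = 7.8e-06). The remaining one, miR-499-5p, went the other way (1.20 ± 0.55, adjusted p = 0.110). In knockout mice alone it was called higher (1.99 ± 0.71, adjusted p = 0.04998). However, miR-499-5p was at the floor in all skin libraries. It passed the filter only through tumours and could not be lower in SCC, so its direction was fixed in advance. The summed level of the 5 was 12.21 to 13.97 in knockout SCC, 12.53 to 14.94 in WT SCC, 16.02 to 16.46 in knockout skin and 16.16 to 16.28 in WT skin. Both melanocyte miRNAs were called lower, miR-204-5p by a difference of -3.94 ± 0.39 and miR-211-5p by one of -3.002 ± 0.68. Their summed level was 6.47 to 7.59 in knockout SCC, 8.45 to 10.73 in WT SCC, 11.18 to 12.67 in knockout skin and 12.18 to 12.59 in WT skin. Of the 5 blood cell miRNAs, 4 were called higher and 0 lower (median 1.20). Of the 2 endothelial miRNAs 1 was called higher and 0 lower (median 0.38), and a list of 2 cannot be set apart from the share over all tested. No row of these lists was at the floor in all libraries, and their part in the family's values was not tested.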

How the data were processed

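Small RNA was measured in 12 libraries. The deposited file holds normalized log2 levels of 1251 miRNAs, and each of its 12 value columns was matched to 1 sample title. Per the submitters' processing notes, the build used was mm10; aligner, counter and normalization method were not given in the sources used here. The sorted values are nearly identical between libraries, as quantile normalization makes them, and none lies below the log2 of 10, the floor. Counts and depth are unknown, so intervals for counting error are not given. Such values depend on ranks within a library, and a change against the floor is understated. Tests used the 544 miRNAs that exceeded the floor in 2 or more libraries, and 647 were at the floor throughout.

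limma 3.58.1 (R 4.3.3) was fitted with a mean per group, trended and robust variances, and Benjamini-Hochberg adjustment per contrast. It was tested on simulated data with normal noise and, for each miRNA, the same spread in all libraries. The simulation had no floor and no outlying library, so it does not cover the effect of a library such as knockout SCC replicate 2. Replicates were numbered in accession order and pair nothing. Named are the 5 members, their passenger arms, the listed markers and, for each member, the 3 miRNAs most like it. The members and lists were chosen with earlier results of these data known, so no score over them was tested. Descriptions used Python 3.11.15 with scipy 1.17.1. All 10 arms matched RefSeq sequences. Alternatives changed the filter, pseudocount, scaling, library weights and groups fitted, or left out each library.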

Additional observations from a re-analysis of the deposited data

Results flagged for a closer look

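Of 32 quantities examined in the 4 knockout SCC libraries, 4 had replicate 2 far from the other 3 (a gap to the nearest library, divided by the group's range, above Dixon's 95% critical value), where chance would flag about 1 in 20. They are miR-200a-3p at a log2 level of 10.24 (gap over range 0.838), miR-429-3p at 10.35 (0.837), miR-200a-5p at 4.96 (0.939) and miR-141-5p at 5.50 (0.930). The 4 values come from 1 library and are not independent of each other. Groups of 2 or 3 libraries were not examined.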

How the results depend on the processing

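Under the 6 alternatives other than leaving out a library, none of 170 values of the 5 guide arms was called, and with each of 12 libraries left out 3 of 360 were, all without knockout SCC replicate 2. Median-ratio scaling moved the median of all tested miRNAs in the averaged tumour comparison from 0.04 to 0.16 (to 0.15 in WT mice and 0.14 in knockout mice), and it turned the sign of miR-200c-3p in WT tumours (0.000685), miR-200a-3p in knockout against WT SCC (-0.011) and the miR-200b-3p interaction (-0.050), all values near 0. Leaving out 1 library in turn gave ranges of log2 differences, listed here where the sign changed. Averaged miR-429-3p and miR-141-5p kept their sign and are listed because their call changed. Other rows kept their sign and are not listed. Among them were averaged miR-200a-3p (-0.97 to -0.33) and miR-200c-3p (-0.75 to -0.12), and all 5 guide arms in knockout against WT skin. Averaged tumour effect: miR-200b-3p -0.071 to 0.49, miR-429-3p 0.068 to 0.57, miR-141-3p -0.54 to 0.20, miR-200b-5p -0.55 to 0.037, miR-141-5p 0.65 to 1.36. WT tumour effect: miR-200b-3p -0.10 to 0.30, miR-429-3p -0.047 to 0.57, miR-200c-3p -0.76 to 0.46, miR-141-3p -0.32 to 0.044. Knockout tumour effect: miR-200b-3p -0.26 to 0.86, miR-200a-3p -0.99 to 0.11, miR-429-3p -0.11 to 0.88, miR-141-3p -0.93 to 0.55, miR-200a-5p -1.08 to 0.13, miR-200b-5p -0.51 to 0.66. Knockout against WT SCC: miR-200b-3p -0.94 to 0.18, miR-200a-3p -0.56 to 0.74, miR-429-3p -0.77 to 0.24, miR-200c-3p -1.08 to 0.18, miR-141-3p -1.05 to 0.44, miR-200a-5p -0.59 to 0.62, miR-200b-5p -0.82 to 0.35, miR-141-5p -0.65 to 0.78. Knockout against WT skin: miR-141-5p -0.076 to 0.16. Interaction: miR-200b-3p -0.37 to 0.74, miR-200a-3p -0.42 to 0.87, miR-429-3p -0.39 to 0.62, miR-200c-3p -1.21 to 0.046, miR-141-3p -0.78 to 0.70, miR-200a-5p -0.27 to 0.94, miR-141-5p -0.67 to 0.76. The number of miRNAs called over all tested was 32 (without WT SCC replicate 1) to 118 for the WT tumour effect, against 99 with all libraries, and 62 with the 2 WT groups alone. It was 1 to 13 for knockout against WT SCC, highest without WT SCC replicate 2, and 0 with the 2 groups alone or with a stricter filter (6 libraries above the floor). It was 0 to 2 for knockout against WT skin, 22 with library quality weights, and 0 to 11 for the interaction. The cause of these shifts was not tested. No paired analysis was possible because nothing in the labels links a skin library to a tumour library. The likeness of miRNAs without knockout SCC replicate 2 was added after seeing the data. The unknown depth and the 2 WT tumours limit the precision.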

Other observations

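Outside the family, 9 tested miRNAs were as low in knockout SCC replicate 2, against the median of the other 3 knockout tumours, as miR-200c-3p or lower. They were named after their values were seen. The lowest of all 544 were the Hox cluster miRNAs miR-196a-5p, at 3.60 in this tumour with a log2 difference of -5.49, and miR-196b-5p, at the floor with a difference of -4.54. The others were miR-672-5p (-4.34), miR-375-3p (-3.92), miR-138-5p (-3.16), both arms of the hypoxia-induced miR-210 (-2.47 for miR-210-3p and -2.38 for miR-210-5p), miR-499-5p (-2.42) and miR-708-3p (-2.16). Of these 9, miR-196a-5p, miR-196b-5p, miR-375-3p and miR-708-3p were lower in this tumour than in all other 11 libraries.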
